A study of Homo sapiens and Mus musculus with 19 samples.

Results

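Lewis lung carcinoma cells, a mouse lung tumour line called LLC here, were examined with and without an activated form of the kinase IKKβ. The comparison rests on 4 of the 19 arrays of the study. They were taken by their titles, 2 arrays titled IKKb against 2 titled MiG, each numbered 1 and 2. All 4 carry the name LLC-kB OVA, whose second part the labels do not explain. MiG was the empty retroviral vector with a green fluorescent protein marker, and IKKb was that vector with IKKβ carrying glutamate in place of serines S177 and S181. The cells grew in DMEM with 10% fetal bovine serum and were sorted on green fluorescence before total RNA was taken. The other 15 arrays held human lung cancer lines. LLC is a single established line, and the labels do not say whether the 2 arrays of a vector came from separate transductions or cultures. All p-values therefore measure only the spread of these arrays or of their ratios, which may be technical.

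NF-kB transcription factors wait in the cytoplasm bound to inhibitor proteins of the IkB family. IKKβ, together with IKKα and the scaffold NEMO, phosphorylates these inhibitors, which are then destroyed so that NF-kB enters the nucleus. Among the genes that NF-kB is known to turn on are its own inhibitors, A20 and other brakes on the pathway, chemokines that call in monocytes and neutrophils, and proteases that cut the matrix.

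The values are MAS5 signals, intensities brought by the authors to a common trimmed mean of 500. A gene is represented by its brightest probe set that names no other gene, which gave 18194 genes, and ratios are of the signal plus 16, IKKb over MiG, for number 1 and number 2 apart. The arrays differed by number in a technical way. The signals of 12 probe sets for poly-A spike RNAs, which are added to a sample and not made by the cells, had medians of 219 and 197 on the arrays numbered 1 and of 8.31 and 11.0 on those numbered 2. Deviations of same-numbered arrays from the mean of their vector correlated at 0.53 across 12549 genes, which are not independent replicates. What the array numbers mean is not given in the labels. MiG 1 also stood apart from the other 3 arrays. Its highest signal was 38898 where theirs ran from 19230 to 20639, and its actin 3' control was 28969 against 14038 to 15828. The median log2 ratio in number 1 followed brightness, at -0.17 in the dimmest decile of the genes tested, 0.13 in a middle decile and -0.23 in the brightest, while number 2 stayed between -0.06 and 0.03. After quantile normalisation the brightest decile lay at 0.02 in number 1, while the 3 dimmest stayed between -0.12 and -0.10. The part of these array differences in the results was not tested, and each result is given within both numbers.

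**Figure D1:**
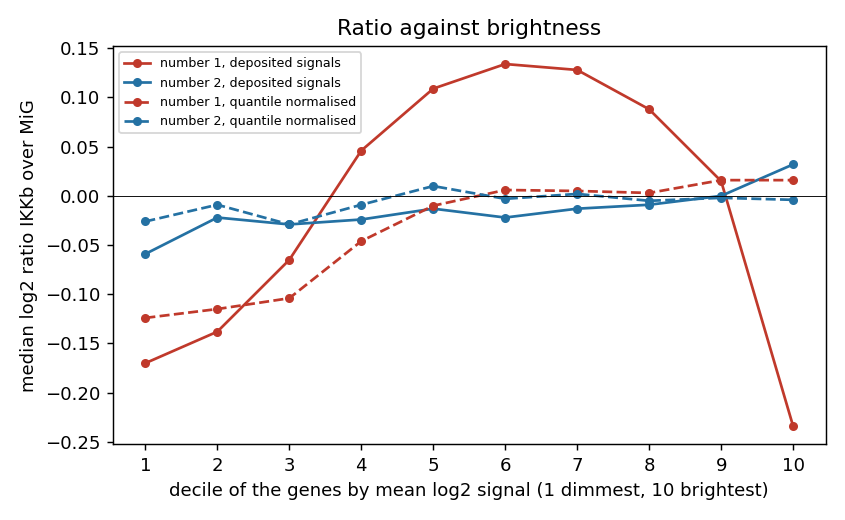
Median log2 ratio of IKKb over MiG (vertical axis) in each decile of the 12549 genes tested, ordered by mean log2 signal (horizontal axis), for the arrays numbered 1 and 2, with the deposited signals and after quantile normalisation. In number 1 the deposited signals give a curve that is lowest, at -0.23, in the brightest decile, and quantile normalisation removes that fall.

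The labelled cell type was checked against its markers. Vimentin, a mesenchymal filament protein, had signals of 35412 and 17608 on the MiG arrays and 18277 and 18154 on the IKKb arrays, and keratin 8, an epithelial filament protein, had 6327 and 6308 on the MiG arrays and 4554 and 5118 on the IKKb arrays. E-cadherin (Cdh1) lay below the 40th percentile of its array, used here as the limit of a low signal, on all 4 arrays. So did 8 of 11 markers of alveolar and airway epithelium, among them Nkx2-1 and Scgb1a1. The cells were thus rich in vimentin and keratins 8 and 18 and low in E-cadherin and in most lung lineage markers. Of 16 leukocyte markers 7 were low on all 4 arrays, including Ptprc, the pan-leukocyte surface protein, and the summed signal was 1134 and 1173 with MiG and 996 and 1071 with IKKb. Of 13 fibroblast and endothelial markers 7 were low on all 4 arrays, with Pecam1 and Vwf among them. Their sum was 799.9 and 637 with MiG and 1309 and 908 with IKKb, and 1 of them, Pdgfra, passed the test described next. Most of the rise in the sum was Pdgfra, which had 419 and 218 with MiG and 918 and 452 with IKKb. The median log2 ratios of the markers were 0.01 and 0.07.

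The main comparison asked which genes differ with activated IKKβ. The largest differences were in Mmp9, a matrix-degrading gelatinase, Saa3, an acute-phase protein, Nfkbie, the NF-kB inhibitor IkBε, and the membrane proteins Tmem176a and Tmem176b, all several-fold higher in both numbers. Among those that came next were the signalling adaptor Traf1, the phosphodiesterase Gdpd5, the caspase Casp4 and the monocyte chemokine Ccl2. Of 18194 genes, 70 (0.385%) were at least 2-fold higher with IKKb in both numbers and 49 (0.269%) at least 2-fold lower. The IKKb signals lay above both MiG signals in 69 of the 70 and below them in 48 of the 49. This follows largely from the 2-fold rule that chose these genes and is no separate support. The ratios of the signals as measured reached 4-fold in both numbers for 10 genes, all higher. In bulk RNA of this kind, a larger share of responding cells and more RNA in each cell cannot be told apart.

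The statistical call depended on how the array numbers were treated. With limma's moderated test and no block, 0 of the 12549 genes with a usable signal (0%) passed an adjusted p of 0.05 in either direction, 238 had an unadjusted p under 0.05, and the smallest adjusted p was 0.0552, for Mmp9 and Nfkbie. With the array number as a replicate block, 155 genes were called higher (1.24%) and 68 lower (0.542%). With quantile normalisation added to the block, an alternative chosen after seeing the data, 66 and 23 were called. The block was an addition to the fit first set, made because the spike-ins split the arrays by number. It takes out the spread that same-numbered arrays share and measures only how far the 2 ratios of a gene differ. The block leaves 1 residual degree of freedom, so its small p-values lean on the spread shared across all genes. The count without a block also depended on single arrays. It was 3 higher and 0 lower without IKKb 1, 7 and 0 without IKKb 2, 33 and 2 without MiG 1, and 51 and 89 without MiG 2, with the lone array assumed to vary like the others. An exact permutation test of 2 arrays against 2 cannot give a two-sided p below 0.333. Below, a gene is said to have passed only where it did so with the replicate block, and without the block none passed. Counts within gene lists are to be read beside the shares of all tested genes, 1.24% higher and 0.542% lower.

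Higher and lower genes differed in how well they were measured. Of the 70 higher genes 56 had a usable signal, 50 passed and 33 passed with quantile normalisation added, and all 70 stayed at least 2-fold higher when the arrays were quantile normalised. In 36 of them both MiG signals were low, so that their ratio is a lower bound, given as "at least" with the 40th percentile in place of the MiG signal. Such a gene could be tested only because both its IKKb signals cleared that percentile, so its pass is no separate support. Of the 49 lower genes 32 had a usable signal, 9 passed and 3 passed with quantile normalisation added. When the arrays were quantile normalised, 38 of the 49 stayed at least 2-fold lower. Of the 49, 40 were low on both IKKb arrays, and such genes could be tested only through their MiG signals. Restricted to genes at or above the 60th percentile on both arrays of a vector, 31 higher and 3 lower genes were left. With both IKKb arrays set against MiG 2 alone, the counts were 120 and 200. The ratio was larger in number 1 for 47 of the 70 higher genes.

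**Figure D2:**
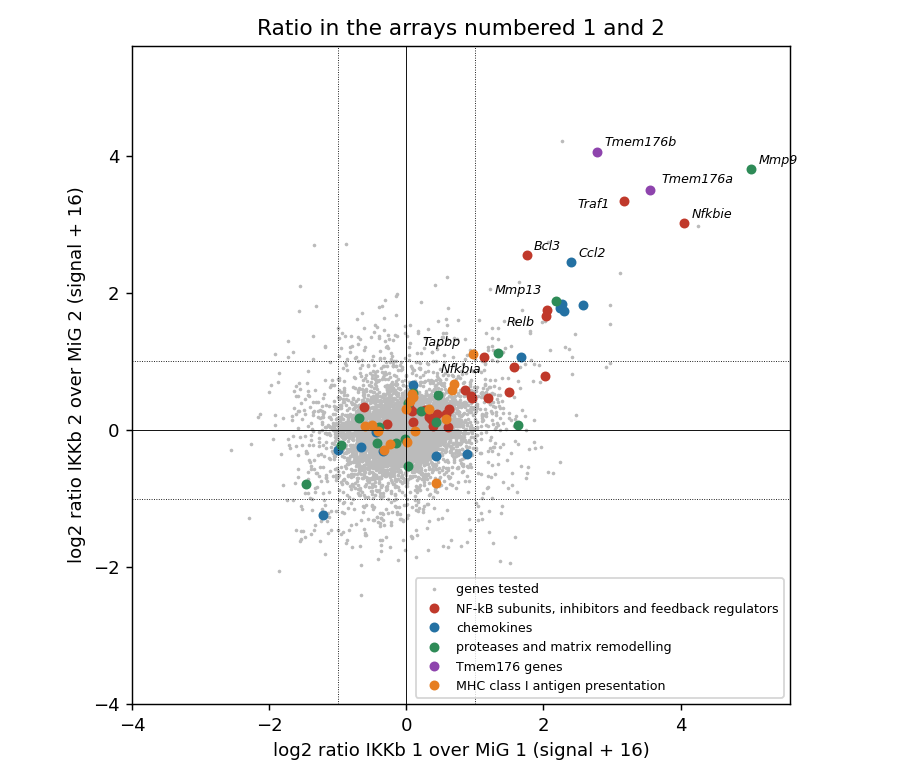
Log2 ratio of IKKb over MiG in number 1 (horizontal axis) and number 2 (vertical axis) for the 12549 genes tested, as grey points, with members of 5 gene lists in colour and dotted lines at 2-fold. The coloured points farthest to the upper right include Mmp9, Nfkbie, Traf1, Ccl2 and both Tmem176 genes, while the grey cloud shows no clear diagonal (correlation 0.226 across genes).

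The targeted gene itself gave little to read. The brightest of the 5 probe sets for Ikbkb, which encodes IKKβ, had signals of 1637 and 1535 on the MiG arrays and 2059 and 1745 on the IKKb arrays, a ratio of 1.25 in number 1 and 1.14 in number 2. Its other probe sets had ratios from 0.665 to 1.72 in number 1 and from 0.588 to 1.58 in number 2, so the IKKb signals were not higher throughout. Whether these probe sets read the transgene is not known from the sources used here, and the level of Ikbkb therefore checks the labels poorly.

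The genes of the NF-kB pathway were higher as a group. Of 30 listed subunits, inhibitors and feedback regulators 26 were measured, and 24 of them had a ratio above 1 in both numbers, against 25.5% of all 18194 genes. All 26 had a usable signal, while the 18194 include genes too dim to be tested. The share among genes of like brightness was not computed. The median log2 ratio of the 26 was 0.74 in number 1 and 0.40 in number 2, where all genes had medians of 0.00 and -0.01. Among the 26, 11 passed as higher and 0 as lower, and 6 were at least 2-fold higher in both numbers. These 6 were Nfkbia, Nfkbie, Relb, Bcl3, Traf1 and Ikbke.

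The inhibitors are described first. Nfkbia, which encodes IkBα, the inhibitor that IKKβ marks for destruction and NF-kB makes anew, had signals of 5698 and 4645 on the MiG arrays and 12485 and 9722 on the IKKb arrays, a ratio of 2.19 in number 1 and 2.09 in number 2. Both IKKb arrays lay far above both MiG arrays, and all 5 probe sets of the gene were higher in both numbers. Its log2 difference was 1.10 ± 0.23 (SE, 2 arrays against 2), with an adjusted p of 1 without the replicate block and 0.00172 with it, and from 0.000236 to 1.0 over the 15 alternatives. Nfkbie had 67.9 and 107 on the MiG arrays and 1376 and 976 on the IKKb arrays. Its ratio of 16.6 in number 1 and 8.10 in number 2 was the largest of the list in number 1, and its second probe set gave 6.46 and 4.22. The log2 difference was 3.54 ± 0.29 (SE, 2 arrays against 2), with an adjusted p of 0.0552 without the replicate block and 5.32e-15 with it, and from 6.83e-24 to 0.416 over the alternatives. Nfkbib, which encodes IkBβ, moved less, with a ratio of 1.53 in number 1 and 1.24 in number 2, and the nuclear inhibitor gene Nfkbiz had 1.37 in number 1 and 1.17 in number 2. Neither of these passed. Bcl3, an atypical IkB protein that acts in the nucleus with p50 and p52, had 51.9 and 3.76 on the MiG arrays and 213 and 99.2 on the IKKb arrays. It passed, but MiG 2 was at a low signal and the MiG arrays differed by 3.43-fold.

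Among the subunits, Relb and Nfkb2 of the alternative arm passed and Rela and Rel of the classical arm did not, and no test compared the arms. Nfkb1, which encodes the classical subunit p50, was not analysed here. Relb, the partner of p52, had 139.8 and 95.5 on the MiG arrays and 624 and 338 on the IKKb arrays, a ratio of 4.11 in number 1 and 3.17 in number 2, and passed with an adjusted p of 0.915 without the replicate block and 9.71e-08 with it (from 9.71e-08 to 1.0 over the alternatives). Nfkb2, which encodes p100, the precursor of p52, had 530.0 and 404 on the MiG arrays and 976 and 612 on the IKKb arrays and also passed, at 1.82 in number 1 and 1.49 in number 2. The difference was modest beside the spread of 1.30-fold between the MiG arrays and 1.58-fold between the IKKb arrays. Rela, the p65 subunit, had 1972 and 2317 on the MiG arrays and 2532 and 2588 on the IKKb arrays, a ratio of 1.28 in number 1 and 1.12 in number 2, and Rel, which encodes c-Rel, had 2.83 in number 1 and 1.46 in number 2 from signals close to the low limit. Neither passed.

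Several brakes and adaptors of the pathway were also higher. Tnfaip3, which encodes the ubiquitin-editing enzyme A20, had 153 and 244 on the MiG arrays and 671 and 434 on the IKKb arrays. Its ratio was 4.05 in number 1 and 1.73 in number 2 and it passed, while its second, dimmer probe set lay at 0.955 and 0.961. Tnip1, the gene of an A20-binding protein, had 724 and 739 on the MiG arrays and 2180.3 and 1404 on the IKKb arrays, a ratio of 2.97 in number 1 and 1.88 in number 2. Traf1, an adaptor of TNF receptors, had 20.3 and 2.93 on the MiG arrays and 312 and 176 on the IKKb arrays, which is at least 6.80-fold in number 1 and at least 3.46-fold in number 2. All 3 passed, and on each the IKKb signals exceeded both MiG signals. Traf2, a related adaptor, had a ratio of 2.27 in number 1 and 1.38 in number 2, and Tnfaip8, a TNF-induced regulator of cell death, had 1.94 in number 1 and 1.38 in number 2. Both passed with the block but not once quantile normalisation was added. Birc2 and Birc3, which encode the ubiquitin ligases cIAP1 and cIAP2, lay at 1.21 and 1.22 and at 1.52 and 1.03 and did not pass.

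Of the kinases, Ikbke stood out. It encodes IKKε, a relative of IKKβ best known from interferon induction, and had 195 and 91.4 on the MiG arrays and 860.3 and 345 on the IKKb arrays. The ratio was 4.16 in number 1 and 3.36 in number 2, with an adjusted p of 1 without the replicate block and 1.12e-08 with it (from 1.12e-08 to 1.0 over the alternatives). Arrays numbered 1 were about as far above arrays numbered 2 in both vectors, by 1.96-fold with MiG and 2.43-fold with IKKb. Ikbkg, which encodes NEMO, was at 1.07 and 1.09 and did not pass.

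**Figure D3:**
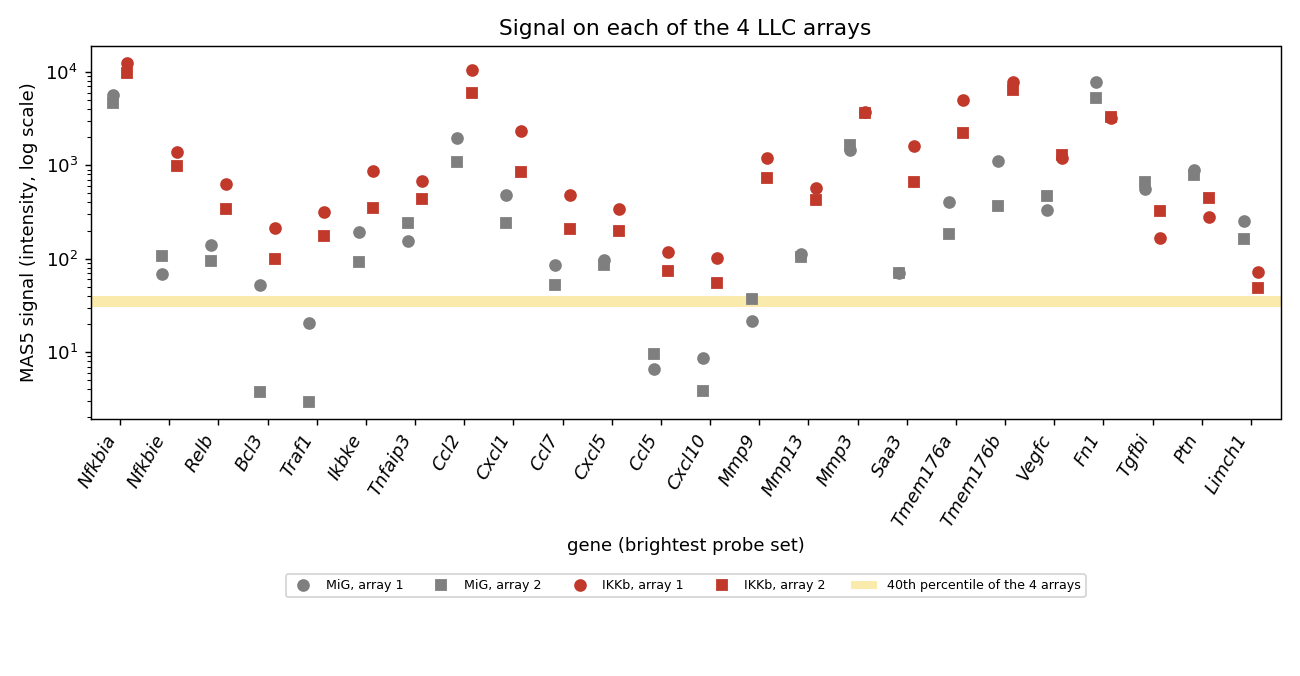
MAS5 signal (vertical axis, log scale) of 24 genes (horizontal axis) on each array, with circles for number 1, squares for number 2, grey for MiG and red for IKKb; the yellow band spans the 40th percentiles of the 4 arrays. For the genes from Nfkbia to Vegfc both red points lie above both grey points, for Fn1, Tgfbi, Ptn and Limch1 below them, and the MiG points of Traf1, Ccl5 and Cxcl10 lie under the band.

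Chemokines split into a group that was much higher and a remainder that was dim or did not pass. Of 24 measured, 6 were at least 2-fold higher in both numbers and the same 6 passed, while 1 was 2-fold lower and did not pass. The list's median log2 ratios were 0.08 and -0.13. Monocyte attractants were among the brightest. Ccl2 had 1980.2 and 1088 on the MiG arrays and 10553 and 5988 on the IKKb arrays, a ratio of 5.29 in number 1 and 5.44 in number 2, a log2 difference of 2.42 ± 0.37 (SE, 2 arrays against 2), and an adjusted p of 0.381 without the replicate block and 5.46e-15 with it (from 2.07e-16 to 1.0 over the alternatives). Ccl7, which shares receptors with Ccl2, had 85.8 and 52.2 on the MiG arrays and 486 and 210.2 on the IKKb arrays, a ratio of 4.93 in number 1 and 3.32 in number 2. For both genes the vectors did not overlap, although arrays numbered 1 were higher than arrays numbered 2 in each vector.

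The neutrophil attractants Cxcl1 and Cxcl5 also passed. Cxcl1 had 478 and 239 on the MiG arrays and 2326 and 855 on the IKKb arrays, a ratio of 4.74 in number 1 and 3.42 in number 2, and its 2 other probe sets gave 6.74 and 2.24, and 2.07 and 2.41. Cxcl5 had 96.3 and 85.2 on the MiG arrays and 343 and 196 on the IKKb arrays, a ratio of 3.20 in number 1 and 2.10 in number 2. Both passed, also with quantile normalisation added. Cxcl2, a close relative, was low on all 4 arrays, with 25.8 and 19.6 with MiG and 27.5 and 10.6 with IKKb.

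Attractants of T cells were much dimmer. Ccl5 had 6.61 and 9.61 on the MiG arrays and 119 and 74.1 on the IKKb arrays, which is at least 2.80-fold in number 1 and at least 1.62-fold in number 2. Cxcl10, a ligand of the receptor CXCR3, had 8.56 and 3.88 on the MiG arrays and 103 and 54.9 on the IKKb arrays, which is at least 2.45-fold in number 1 and at least 1.27-fold in number 2. They passed with the block and did not once quantile normalisation was added. Cxcl11, another CXCR3 ligand, was lower, with 42.5 and 42.4 with MiG and 9.06 and 8.81 with IKKb, and did not pass. Ccl20, which attracts dendritic and Th17 cells, had 6.64 and 3.95 with MiG and 87.2 and 14.1 with IKKb and was too dim to be tested.

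Most cytokine genes did not pass. Of 32 cytokines and growth factors measured, 2 passed as higher and 0 as lower, and 12 were low on all 4 arrays, among them Il6, Tnf, Il1a and Csf2, which are well-known NF-kB targets in other cells. The medians of the list were 0.29 and -0.07. Vegfc, a growth factor for lymphatic vessels, had 329 and 467 on the MiG arrays and 1192 and 1276 on the IKKb arrays. Its ratio was 3.50 in number 1 and 2.68 in number 2 and its 2 other probe sets gave 3.23 and 3.05, and 3.21 and 3.50. The log2 difference was 1.61 ± 0.23 (SE, 2 arrays against 2), with an adjusted p of 0.33 without the replicate block and 4.38e-11 with it (from 4.38e-11 to 0.694 over the alternatives). Tgfb1, which encodes TGF-β1, passed at 1.43 in number 1 and 1.59 in number 2 but not with quantile normalisation added. Csf1 and Lif, at 1.40 and 1.17 and at 1.47 and 1.57, did not pass.

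Of 27 cytokine and TNF family receptor genes measured, 4 passed as higher and 0 as lower. Tnfrsf9, the T-cell costimulator 4-1BB, had 58.0 and 76.8 on the MiG arrays and 566 and 314 on the IKKb arrays, a ratio of 7.87 in number 1 and 3.55 in number 2. One of its dimmer probe sets was higher in number 1, while in number 2 it had 15.4 with MiG and 6.72 with IKKb. The death receptor gene Fas had 13.7 and 30.0 on the MiG arrays and 88.9 and 77.2 on the IKKb arrays, which is at least 2.17-fold in number 1 and at least 1.68-fold in number 2. Il15ra, which presents interleukin 15, had 2.51 in number 1 and 1.42 in number 2, and Ifngr2, a chain of the interferon gamma receptor, had 1.78 in number 1 and 1.19 in number 2. The second probe set of Ifngr2 lay at 1.18 and 0.739. Tnfrsf9 was the member of these 4 that still passed with quantile normalisation added.

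Matrix proteases were raised in a subset. Of 20 protease and matrix remodelling genes measured, 3 passed, all higher and all at least 2-fold in both numbers, while the list's medians were 0.02 and 0.20. Mmp9 had 21.6 and 37.4 on the MiG arrays and 1212 and 729.7 on the IKKb arrays, which is at least 25.4-fold in number 1 and at least 13.4-fold in number 2. Its second probe set was likewise low with MiG, at 14.0 and 16.1, and had 1339 and 295 with IKKb. The adjusted p of Mmp9 was 0.0552 without the replicate block and 5.46e-15 with it (from 2.51e-32 to 0.416 over the 13 alternatives that kept the gene). Mmp13, a collagenase, had 112 and 104 on the MiG arrays and 566 and 424 on the IKKb arrays, a ratio of 4.54 in number 1 and 3.67 in number 2. Mmp3, or stromelysin 1, had 1448 and 1646 on the MiG arrays and 3697 and 3594 on the IKKb arrays, a ratio of 2.54 in number 1 and 2.17 in number 2. In all 3 genes both IKKb signals lay well above both MiG signals. Mmp14, the membrane-bound protease, was bright and lay at 0.898 and 0.880, and the inhibitor gene Timp1 at 0.986 and 0.910.

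Of 15 secreted innate defence genes measured, 5 passed as higher and 0 as lower, and 7 were low on all 4 arrays, Lcn2 among them. Saa3 had 69.9 and 70.1 on the MiG arrays and 1621 and 663 on the IKKb arrays, a ratio of 19.1 in number 1 and 7.88 in number 2. The MiG signals were nearly equal and the IKKb signals differed by 2.41-fold, and the adjusted p was 0.276 without the replicate block and 2.97e-14 with it (from 3.65e-21 to 0.667 over the alternatives). Slpi, a secreted protease inhibitor, had 151 and 139.6 on the MiG arrays and 509 and 279 on the IKKb arrays, a ratio of 3.15 in number 1 and 1.90 in number 2. C1s1, a complement protease, had 183 and 66.6 on the MiG arrays and 455 and 151 on the IKKb arrays. Its ratio was 2.37 in number 1 and 2.02 in number 2. The vectors overlapped, as IKKb 2 lay below MiG 1. The arrays of a vector differed by 2.41-fold with MiG and 2.82-fold with IKKb, more than the vectors did in either number. Serping1, the inhibitor of C1s1, had 13.7 and 17.6 on the MiG arrays and 110.5 and 59.7 on the IKKb arrays. That is at least 2.62-fold in number 1 and at least 1.36-fold in number 2. Ceruloplasmin (Cp) passed narrowly although its ratio was 1.06 in number 1 and 1.84 in number 2. With quantile normalisation added, Serping1 and Cp no longer passed.

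Tmem176a and Tmem176b encode related membrane proteins and were among the genes with the largest differences. Tmem176a had 407 and 183 on the MiG arrays and 4963 and 2236 on the IKKb arrays, a ratio of 11.8 in number 1 and 11.3 in number 2, and its 2 other probe sets gave 14.2 and 25.5, and 9.49 and 13.0. Tmem176b had 1118 and 366 on the MiG arrays and 7755 and 6358 on the IKKb arrays, a ratio of 6.85 in number 1 and 16.7 in number 2. Each IKKb array exceeded each MiG array several-fold, but the MiG arrays themselves differed by 2.13-fold and 2.97-fold. Adjusted p-values were 0.33 without the replicate block and 1.03e-21 with it for Tmem176a (from 1.03e-21 to 0.694 over the alternatives), and 0.33 without the replicate block and 1.2e-16 with it for Tmem176b (from 5.59e-27 to 0.694).

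Of 17 measured genes of antigen presentation by MHC class I 2 passed, both higher. The list's median log2 ratios were 0.08 and 0.16, and 0.28 and 0.17 after quantile normalisation. Tapbp, which encodes tapasin, the protein that holds MHC class I at the peptide transporter, had 1544 and 803 on the MiG arrays and 3048 and 1757 on the IKKb arrays, a ratio of 1.96 in number 1 and 2.16 in number 2. Erap1, which trims peptides, had 258 and 272 on the MiG arrays and 417 and 417 on the IKKb arrays, a ratio of 1.58 in number 1 and 1.50 in number 2. The first passed with an adjusted p of 1 without the replicate block and 3.79e-08 with it (from 3.79e-08 to 1.0 over the alternatives), but the MiG arrays alone differed by 1.90-fold. Erap1 no longer passed with quantile normalisation added. The heavy chain genes H2-K1 and H2-D1 belong to a family of near-identical genes that probe sets may not tell apart, so their values are uncertain. By their brightest probe sets they lay at 1.07 and 1.39 and at 0.997 and 1.23 and did not pass. After quantile normalisation the ratios were 1.23 and 1.38 for H2-K1 and 1.32 and 1.22 for H2-D1. The next brightest probe set of H2-K1 had 891 and 624 with MiG and 2336 and 1311 with IKKb, a ratio of 2.59 in number 1 and 2.07 in number 2, and its 2 dim ones were also higher in both numbers. For H2-D1 the 4 next brightest ran from 0.797 to 1.60 in number 1 and from 1.15 to 1.56 in number 2. B2m, their light chain, lay at 1.04 and 1.34, and at 1.39 and 1.32 after quantile normalisation. It passed only with quantile normalisation and the block together, at an adjusted p of 0.0175. The transporter gene Tap1 was at 0.799 and 0.820, and the immunoproteasome genes Psmb8 and Psmb9 were near the low limit. Of 27 interferon-stimulated genes, Gbp2, a guanylate-binding protein, passed, with 5.18 and 16.2 with MiG and 94.0 and 57.4 with IKKb, which is at least 2.28-fold in number 1 and at least 1.32-fold in number 2, but not with quantile normalisation added. Interferon-stimulated genes as a list had medians of -0.01 and 0.09.

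Most adhesion and surface genes did not pass. Of 24 measured, 1 passed, Cd82, a tetraspanin studied as a metastasis suppressor, with 275 and 82.8 on the MiG arrays and 1201 and 647 on the IKKb arrays, a ratio of 4.18 in number 1 and 6.71 in number 2. Its second probe set went the other way, at 0.444 and 0.774, and the mean of the probe sets gave a log2 difference of 0.82 in place of 2.41. Icam1, a leukocyte adhesion ligand and NF-kB target in many cells, was low on all 4 arrays, with 14.8 and 13.7 with MiG and 19.0 and 29.7 with IKKb. Vcam1, a ligand of similar use, was bright at 3375 and 3499 with MiG and 3301 and 3697 with IKKb. The checkpoint ligand gene Cd274, which encodes PD-L1, had 1.28 and 1.13 and did not pass.

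Among 19 classic NF-kB effector and survival genes, 1 passed as higher and 1 as lower. Ptges, a prostaglandin E synthase, had 1609.8 and 1673 on the MiG arrays and 3528 and 2555 on the IKKb arrays, a ratio of 2.18 in number 1 and 1.52 in number 2. Clu, which encodes the chaperone clusterin, had 2789.8 and 1371 on the MiG arrays and 1116 and 882 on the IKKb arrays and was lower by 2.48 in number 1 and 1.54 in number 2. Sod2, the mitochondrial superoxide dismutase, had a ratio of 1.50 in number 1 and 1.22 in number 2, and Nos2 was low on all 4 arrays. Neither Sod2 nor the survival genes Bcl2l1 and Xiap, at 0.880 and 1.02 and at 0.948 and 0.927, passed.

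**Figure D4:**
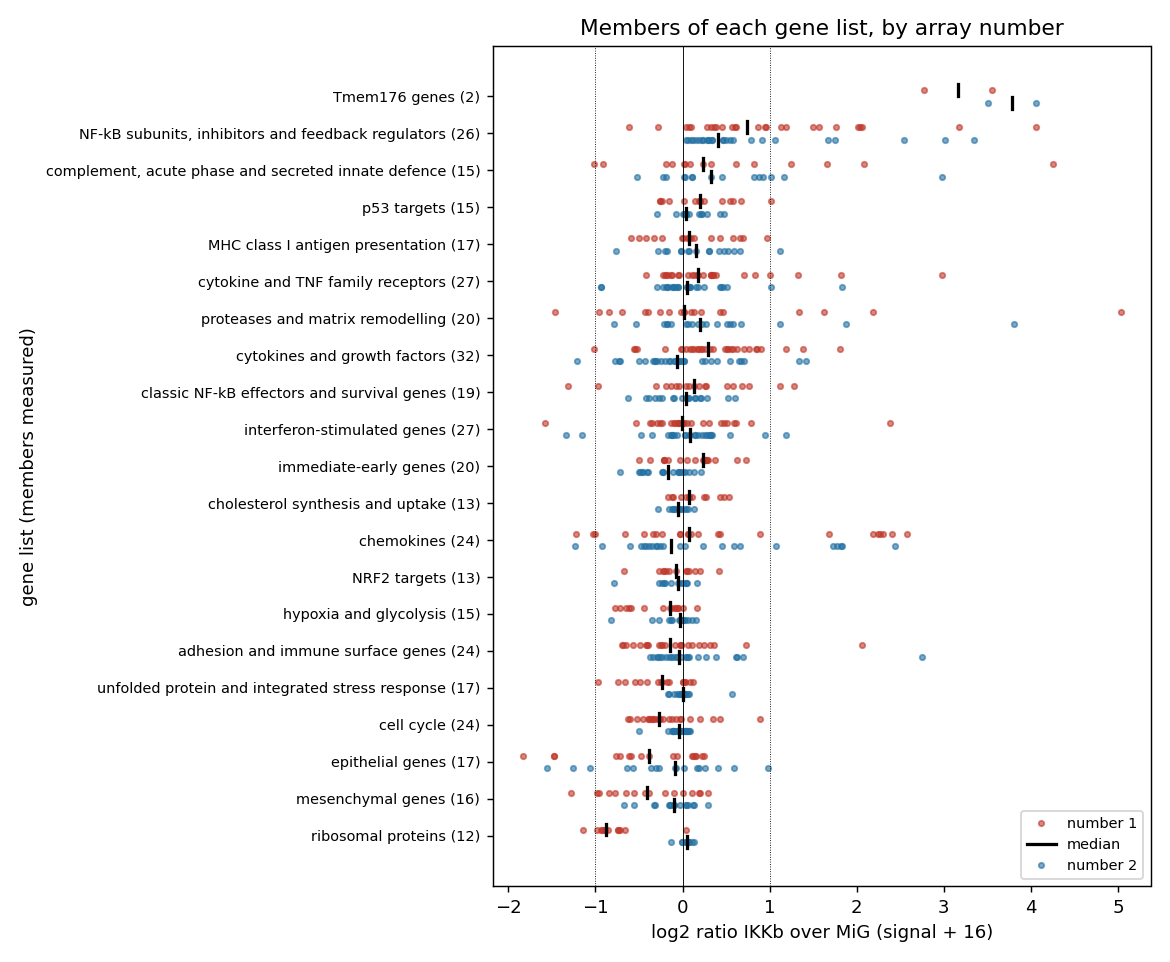
Log2 ratio of IKKb over MiG (horizontal axis) for every measured member of 21 gene lists (vertical axis, number of members in brackets), with number 1 in red, number 2 in blue and black bars at the medians; dotted lines mark 2-fold. The NF-kB list lies to the right in both numbers, with medians of 0.74 and 0.40, while the ribosomal proteins lie at -0.87 in number 1 and 0.06 in number 2.

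Genes outside the lists filled much of the higher group. Gdpd5, a membrane phosphodiesterase, had 106 and 18.4 on the MiG arrays and 574 and 621 on the IKKb arrays, and the MiG arrays differed by 3.56-fold. Casp4, the inflammatory caspase-11, had 1.59 and 5.06 on the MiG arrays and 137 and 87.1 on the IKKb arrays, which is at least 3.16-fold in number 1 and at least 1.85-fold in number 2. Nlrp3, the inflammasome sensor, had 100.4 and 73.9 on the MiG arrays and 244 and 223 on the IKKb arrays, a ratio of 2.24 in number 1 and 2.66 in number 2. Both genes act in innate immune sensing, and both passed, also with quantile normalisation added. Casp4 was low on both MiG arrays and could be tested only through its IKKb signals, so its pass is no separate support. Col8a1, a collagen chain, had 914 and 863 on the MiG arrays and 2334 and 2440.2 on the IKKb arrays and a ratio of 2.53 in number 1 and 2.79 in number 2. Igfbp7, a binding protein for insulin-like growth factors, had 2.37 in number 1 and 2.54 in number 2. Its dimmer probe sets lay at 0.97 and 1.40 and at 0.64 and 1.10. Over the alternatives its log2 difference fell as low as 0.42, from 1.295 in the fit without a block. The surface protein gene Cd34 had 224 and 116 on the MiG arrays and 593 and 318 on the IKKb arrays, and Pdgfra, a growth factor receptor of mesenchymal cells, had 419 and 218 on the MiG arrays and 918 and 452 on the IKKb arrays. A dimmer probe set of Pdgfra lay at 0.896 and 0.861. Cd34 and Pdgfra are also used as markers of endothelial or stromal cells. Of the 13 fibroblast and endothelial markers 7 were low on all 4 arrays, Pecam1 and Vwf among them. Of all 13, 6 had a ratio above 1 in both numbers and 3 below 1. Ecscr and Stab1, also linked to endothelial cells but not in that list, passed as higher. Ecscr had a ratio of 4.15 in number 1 and 3.36 in number 2. Stab1 was low on both MiG arrays and no longer passed with quantile normalisation added. Whether such cells were present was not tested. Just inside the 2-fold limit lay Fas and C1s1, with log2 ratios of 1.02 and 1.01 in number 2. Just outside lay Pdgfra at 0.999 in number 2 and Tapbp at 0.97 in number 1.

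Among the bright genes that passed as lower were Fn1 and Tgfbi. Fn1, which encodes the matrix protein fibronectin, had 7828 and 5298 on the MiG arrays and 3225 and 3310.1 on the IKKb arrays and was lower by 2.42 in number 1 and 1.60 in number 2. Its second probe set was also lower in both numbers. Tgfbi, a matrix protein induced by TGF-β, had 562 and 666 on the MiG arrays and 167 and 320.3 on the IKKb arrays and was lower by 3.16 in number 1 and 2.03 in number 2. Both passed, also with quantile normalisation added, at adjusted p-values of 0.000267 for Fn1 (from 0.000267 to 1.0 over the alternatives) and 1.79e-06 for Tgfbi (from 1.79e-06 to 1.0) with the block alone. The mesenchymal list had 16 members measured, of which 2 passed, both lower, Fn1 and Acta2, the smooth muscle actin. Acta2 had 1152 and 2749 with MiG and 729 and 1867 with IKKb, so its difference between vectors was smaller than that between the arrays of a vector. The list's medians were -0.41 and -0.10, and -0.10 and -0.13 after quantile normalisation.

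Ptn, Dkk2 and Plat, which encode secreted proteins, also passed as lower. Ptn, the growth factor pleiotrophin, had 884 and 778 on the MiG arrays and 276 and 449.5 on the IKKb arrays and was lower by 3.08 in number 1 and 1.71 in number 2. Dkk2, a modulator of Wnt signalling, had 5194 and 4434 on the MiG arrays and 2771 and 2688 on the IKKb arrays and was lower by 1.87 in number 1 and 1.65 in number 2. Plat, which encodes tissue plasminogen activator, had 991 and 853 on the MiG arrays and 504 and 579 on the IKKb arrays and was lower by 1.94 in number 1 and 1.46 in number 2, but its second, dim probe set was higher. All 3 passed with the block, and Plat no longer did with quantile normalisation added. Scara5, a ferritin receptor, had 375 and 230.0 on the MiG arrays and 100.5 and 105 on the IKKb arrays, and Limch1, which is tied to the actomyosin cytoskeleton, had 252 and 162 on the MiG arrays and 71.6 and 48.8 on the IKKb arrays. These 2, with Tgfbi, were the genes at least 2-fold lower in both numbers that also passed with quantile normalisation added.

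Most other genes in the lower group were dim. Krt19, an epithelial keratin, had 77.4 and 44.0 with MiG and 17.7 and 4.36 with IKKb, and Cldn4, a tight junction protein, had 44.0 and 33.9 with MiG and 5.50 and 7.96 with IKKb. Creb3l3, a transcription factor best known from liver, had 108 and 63.2 with MiG and 18.5 and 3.01 with IKKb, and Cdsn, a skin adhesion protein, had 108 and 80.6 with MiG and 9.18 and 23.5 with IKKb. Their IKKb signals were all below the 40th percentile. Of the 49 lower genes, 46 had a MiG signal under the 60th percentile on at least 1 array.

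Activated IKKβ was also expressed in 5 lines of human lung cancer (PC9, HCC827, H358, H23 and A549), with 1 array for each line and vector, and these values are set beside those of LLC without a test. Of the 70 genes higher in LLC 60 had a gene of the same symbol on the human arrays, and 7 of these were at least 2-fold higher in 3 or more lines: Ccl2, Ccl5, Cxcl1, Cxcl10, Mmp9, Tnfrsf9 and Traf1. Of all 13637 genes with the same symbol in both species, 0.242% were this much higher in 3 or more lines and 0.154% this much lower. Nfkbie, at log2 ratios of 4.05 and 3.02 in LLC, ran from 0.29 to 1.73 in the human lines. Tmem176a, at 3.56 and 3.50 in LLC, ran from -1.82 to 1.97, and Vegfc, at 1.81 and 1.42, from -0.04 to 0.17. Icam1 and Il6, which were low on all LLC arrays, had log2 ratios from 0.25 to 2.53 and from 0.36 to 2.93. Of the 49 genes lower in LLC 34 had a human counterpart by symbol, and 0 were 2-fold lower in 3 or more lines. Of the 60 higher genes 7 had a ratio above 1 in all 5 lines, and of the 34 lower genes 4 had a ratio below 1 in all 5. The same shares over all genes were not computed. Limch1 was among these 4, with log2 ratios of -1.73 in H358, -0.72 in HCC827, -0.27 in H23, -0.19 in PC9 and -0.09 in A549.

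**Figure D5:**
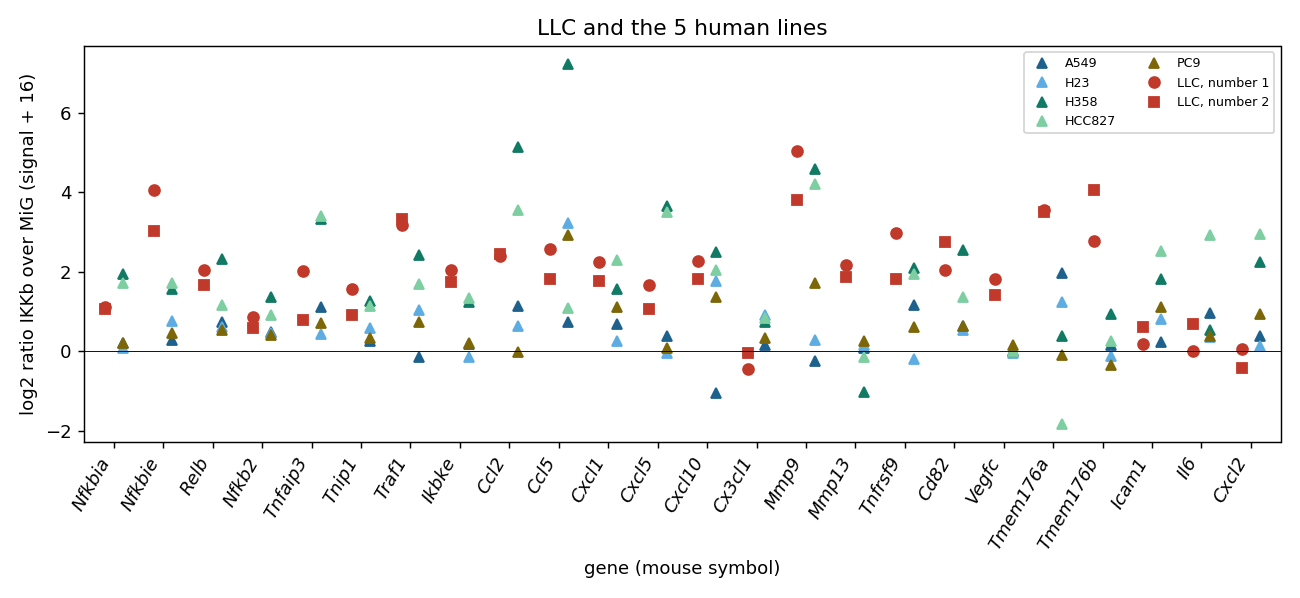
Log2 ratio of IKKb over MiG (vertical axis) for 24 genes (horizontal axis) in LLC, in red with a circle for number 1 and a square for number 2, and in 5 human lines, as triangles, each from 1 array per vector. Nfkbie and both Tmem176 genes lie higher in LLC than in any human line, and Icam1 lies at 0.18 and 0.62 in LLC, against up to 2.53 in HCC827.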

How the data were processed

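RNA of 4 LLC arrays (2 MiG, 2 IKKb) and 15 human arrays was measured on single-colour arrays. The deposited values are intensities per probe set, computed with GCOS 1.4 and MAS5, per the submitters' processing notes, and scaled by the authors to a mean of 500 without the lowest and highest 2 percent, as checked on the values. Low signals of this kind vary strongly, and the common mean hides any difference in total RNA. Of 45101 mouse probe sets 34958 name 1 gene, 932 several and 9211 none, by a platform annotation whose symbols were not updated. The brightest single-gene probe set stood for each of 18194 genes, as log2 of the signal plus 16. Genes above the 40th percentile of their array on at least 2 arrays, 12549, were tested with limma 3.58.1 in R 4.3.3 (lmFit, eBayes with trend, two-sided) and Benjamini-Hochberg adjustment at 0.05, without a block. The fit with the array number as a replicate block is printed beside it, since spike-ins split the arrays by number; the numbers are not known to pair the arrays. The method was run on simulated data with the same spread for every gene and changes only in genes above the median signal. That run did not model the noise of dim signals or the brightness effect in number 1. It is therefore no support for the calls made here. Named genes were those with the smallest p (12 per direction), members of 21 gene and 3 marker lists that passed or reached 2-fold, and a fixed set. Genes, lists and rules were chosen with earlier results of these data known. Some list genes lacked a single-gene probe set and were not analysed here. Human genes were matched by symbol. Figures used matplotlib 3.10.9 in Python 3.11.15. No sequences were used.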

Additional observations from a re-analysis of the deposited data

Results flagged for a closer look

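Cx3cl1, a membrane-bound chemokine, had log2 ratios of IKKb over MiG of -0.44 in number 1 and -0.03 in number 2 of LLC, and of 0.16 in the lowest and 0.91 in the highest of the 5 human lines. It stands out because every LLC ratio is below 0 and every human ratio above 0, but the difference was not tested, the second LLC ratio is close to 0, and without MiG 1 the LLC value was 0.15. Groups of 2 arrays were too small for a check of single outlying arrays.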

How the results depend on the processing

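The counts of genes past the test, 0 higher and 0 lower, were the same with quantile normalisation, a pseudocount of 1, centring on the median, the mean of a gene's probe sets, tested genes set at the 60th percentile or not filtered at all, and a robust prior or no trend in eBayes. A pseudocount of 64 gave 2 higher. The replicate block gave 155 higher and 68 lower, and quantile normalisation with the replicate block 66 and 23. Leaving out 1 array gave 3 to 51 higher and 0 to 89 lower. The counts at 2-fold in both numbers, 70 and 49, were 78 and 41 after quantile normalisation, 120 and 200 against MiG 2 alone, and 31 and 3 above the 60th percentile. The cause of these shifts was not tested, except that the last setting keeps fewer genes.

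Apart from the genes used to check the cell type, the genes named in the text and tested that are not listed here kept their direction under every alternative run. For vimentin the sign changed without MiG 1, as both IKKb signals lay below MiG 1 but above MiG 2. Leaving out 1 array at a time changed the sign of the log2 difference for the following genes. The values ran from -1.27 to 0.07 for Acta2, from -0.32 to 0.17 for Bcl2l1, from -0.05 to 0.58 for Cd274 and from -0.62 to 0.15 for Cx3cl1. They ran from -1.13 to 0.18 for Gstm1, from -0.36 to 0.66 for H2-D1, from -0.12 to 0.70 for H2-K1 and from -0.22 to 0.61 for Psmb8. For Psmb9 they ran from -0.35 to 0.61, for Tap1 from -0.65 to 0.04, for Timp1 from -0.17 to 0.01 and for Vcam1 from -0.06 to 0.10. With the mean of probe sets Plat (0.07) and Vcam1 (-0.02) changed sign, and with quantile normalisation, with or without the block, Mki67 (0.03). Apart from the block, leaving out MiG 2 or MiG 1 moved the most named genes past the threshold. Signals near the background limit what 2 arrays per vector can show for dim genes.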

Other observations

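Most members of the gene groups outside inflammation did not pass the test. Of 24 cell cycle genes 1 passed with the replicate block, Ccne1, which encodes cyclin E1 and was lower by 1.29 in number 1 and 1.41 in number 2, while its second probe set lay at 1.33 and 1.06. The proliferation marker Mki67 had 5113 and 5050.4 on the MiG arrays and 4865 and 5073 on the IKKb arrays. Of 15 p53 targets 2 passed as higher, Trp53inp1 at 1.59 and 1.39 and the cell death gene Pmaip1, which encodes Noxa, at 2.02 and 1.21, and neither passed with quantile normalisation added. Of 15 hypoxia and glycolysis genes 1 passed, Adm, which encodes the vessel-dilating peptide adrenomedullin, with 658 and 387 on the MiG arrays and 426 and 211 on the IKKb arrays. For Adm the vectors overlapped, as IKKb 1 lay above MiG 2. Adm was lower by 1.53 in number 1 and 1.77 in number 2 and passed with quantile normalisation too. The unfolded protein and integrated stress list and the cholesterol list had 0 of 17 and 0 of 13 members past the block test. Of 20 immediate-early genes 1 passed, Egr3, lower by 1.29 in number 1 and 1.39 in number 2 with a second probe set at 0.421 and 1.10, and of 13 NRF2 targets 1 passed, Gstm1, lower by 1.60 in number 1 and 1.21 in number 2. For Gstm1 the vectors overlapped too, with 1635 on IKKb 1 and 1044 on MiG 2. Ccne1, Egr3 and Gstm1 no longer passed with quantile normalisation added.

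Ribosomal proteins show how number 1 differs. The 12 measured had a median log2 ratio of -0.87 in number 1 and 0.06 in number 2, and 0.04 and 0.00 after quantile normalisation. None of the 12 passed with the block. Other probe sets of the named genes past 2-fold mostly moved with the brightest. Of 38 that were not low on all 4 arrays, from 19 genes, 32 had the direction of the brightest in both numbers, and the 6 that did not belonged to Cd82, Dclk1, Igfbp7, Scara5 and Tnfrsf9. The genes were chosen by their brightest probe set, several probe sets share a gene, and the share over all genes was not computed.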
